A study of Fundulus heteroclitus with 36 samples.

Results

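The comparison described here is that of the higher with the lower concentration of PCB126 in brains of Atlantic killifish (Fundulus heteroclitus) embryos from New Bedford Harbor (NBH). The groups compared hold 12 of the 36 RNA sequencing libraries of the study, the 6 whose titles read NBH PCB400 (400 ng/L) and the 6 whose titles read NBH PCB40 (40 ng/L). PCB126, a dioxin-like polychlorinated biphenyl, was given to the embryos directly from day 1 to day 7 after fertilisation. Whole brains were taken one per library at day 17, that is 10 days after the exposure ended. By the study's design text the parents of the exposed embryos had been kept on a salmon diet low in methylmercury (MeHg). The 6 NBH Control embryos received no PCB126, and their values are given for some of the genes only. Values of embryos of Scorton Creek (SCO), a second population, are given only where their response to 40 ng/L (6 SCO PCB40 against 6 SCO Control libraries) is set beside the NBH values. All 36 libraries, including 6 titled SCO Hg Fed, were however fitted in 1 model. They therefore share in the gene filter and in the estimate of spread behind every call. The labels do not say from how many parents the embryos came, so the gene p-values below measure the spread between embryos within the groups of the study.

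PCB126 binds the aryl hydrocarbon receptor (AHR), a ligand-activated transcription factor. With its partner ARNT the receptor switches on genes such as CYP1A, which encodes a cytochrome P450 that oxidises aromatic compounds, and ahrr, which encodes a repressor that closes the loop. Killifish of New Bedford Harbor, a site long polluted with PCBs, are known for an inherited tolerance to dioxin-like compounds in which CYP1A is hard to induce. In the developing brain, AHR ligands are known to disturb the division of progenitors, and lipid and sterol supply accompanies growth and myelination.

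Values are counts per mega-read (CPM) on library totals scaled by the trimmed mean of M values, and genes are compared by name with their own levels, never with each other. A gene was called when its adjusted p was under 0.05 (edgeR's quasi-likelihood test with Benjamini-Hochberg adjustment over 23292 genes, two-sided), and log2 fold changes are given as 400 against 40 ng/L with their standard error (SE). Depth was 38.5 to 52.5 M estimated reads in PCB400 and 45.8 to 66.4 M in PCB40. Neuronal and myelin markers were present in every library of both groups (elavl3 at 809 to 1276 CPM, snap25a at 1022 to 1786, mbpa at 789 to 1696). The markers gfap, at 15.52 to 78.35 CPM, and slc17a6b, at 16.41 to 133.8, varied more between libraries. These marker values, and the CPM given below as equal to 3 counts, are on library totals without the scaling. Among the 18 NBH libraries the first 2 principal components held 18.0% and 13.2% of the variance, and on the second component 5 PCB400 embryos lay between -64.7 and -42.1, while the Control and PCB40 embryos lay between -5.85 and 47.9.

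Replicate 6 of PCB400 and replicate 1 of PCB40 stood apart. PCB400 replicate 6 lay at 4.21 on the second component, among the other doses, and at 98.6 on the first, and it had the lowest depth of the 12 libraries. Over the 822 called genes it was nearer to the mean of the other PCB400 embryos than to that of PCB40 in 454 (55.2%), against 83.2% to 97.2% for the other 5, a measure that uses the same libraries as the calls. PCB40 replicate 1 lay at 79.1 on the first component and was nearer to PCB400 in 407 genes (49.5%), against 2.19% to 10.2% for the other 5. Both also had a positive slope of expression on transcript length (0.163 and 0.15), as did PCB400 replicate 2 (0.152), while the slope in the remaining 9 libraries ran from -0.172 to 0.0164. No label marks these libraries, and counts are given below with and without them.

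The test called 822 genes between the doses, or 3.53% of those tested, 261 of them higher (1.12%) and 561 lower (2.41%) at 400 ng/L. Most steps were moderate. The median log2 fold change was 0.79 among the genes called higher and -0.73 among those called lower, 225 were over 2-fold (93 higher and 132 lower), and over all tested genes the median was 0.05. At an unadjusted p under 0.05 there were 4697 genes (20.2%). In 182 called genes the 6 embryos of one group all lay outside the range of the other. Over all tested genes such a gap, in either direction, occurred in 328 (1.41%). The calls depended on single embryos, as the plot of calls with libraries left out shows. There were 2594 calls (46% higher) without PCB40 replicate 1, 1527 without PCB400 replicate 6 and 2402 without both, a choice made after the data were seen, and the last fit kept 812 of the 822 genes. In the other direction, 156, 328 and 103 genes were called without PCB400 replicates 2, 3 and 5, and 494, 235, 97 and 429 without PCB40 replicates 3, 4, 5 and 6. With the length slope of each library as a covariate 371 genes were called, 48.5% of them higher against 31.8% in the main fit, and 248 were among the 822. With only the 12 libraries of the 2 groups fitted, 126 genes were called, 118 of them among the 822 (14.4%).

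**Figure D1:**
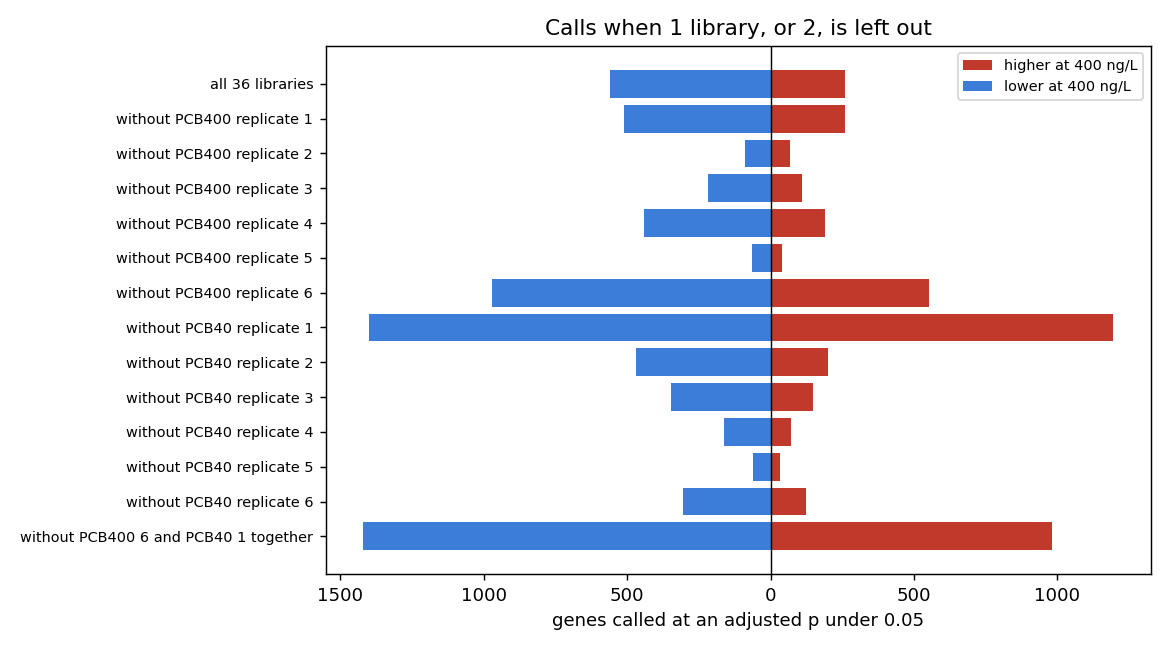
Number of genes called at an adjusted p under 0.05 (x axis), with genes higher at 400 ng/L drawn to the right and genes lower drawn to the left, for the fit of all 36 libraries and for fits without 1 library or without 2. The fit of all libraries called 261 and 561 genes, and the count fell to 97 without PCB40 replicate 5 and rose to 2594 without PCB40 replicate 1.

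Of the AHR pathway, the target CYP1A and a receptor gene, ahr2, were called, both higher. CYP1A measured 20.7, 149, 149, 45.9, 110 and 7.14 CPM in the 6 PCB40 embryos and 608, 358, 496, 408, 464 and 44.5 CPM in the 6 PCB400 embryos. Thus 5 PCB400 embryos lay above every PCB40 embryo, while PCB400 replicate 6 lay within the PCB40 range and PCB40 replicate 6 within the Control range of 2.72 to 11.8 CPM. The step was 4.94-fold on group means, from 80.3 ± 63.9 to 396 ± 192 CPM (SD, n = 6 each), with a log2 fold change of 2.30 (SE 0.63, adjusted p 0.0368, edgeR). The CYP1A call was lost without PCB400 replicates 1, 2, 3 or 5 or PCB40 replicates 4, 5 or 6 (adjusted p 0.0557 to 0.0882). The log2 fold change in these fits lay between 2.06 and 2.42. The call was kept without PCB400 replicate 6 (log2 fold change 2.54, adjusted p 0.0106). The AHR repressor gene ahrr measured 0.0379 to 0.449 CPM in PCB40 and 0.872, 1.24, 0.879, 0.62, 1.29 and 0.16 CPM in PCB400. Its lowest PCB40 value lay under 3 counts, which equal 0.0451 to 0.0655 CPM there. The gene was not called (log2 fold change 1.73, SE 0.58, adjusted p 0.0829), although 5 of 6 PCB400 embryos lay above every PCB40 embryo. The ahrr gene did pass without PCB400 replicate 6 (1.94, adjusted p 0.036) and without PCB40 replicate 1 (1.93, adjusted p 0.0425).

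The gene with the symbol ahr2, one of several AHR genes of this fish, was itself higher. It measured 2.57, 3.3, 3.22, 3.7, 2.2 and 1.97 CPM in PCB40 and 5.6, 5.58, 5.71, 4.96, 6.28 and 3.05 CPM in PCB400 (1.84-fold, log2 fold change 0.88, SE 0.17, adjusted p 0.00833, edgeR). The 5 PCB400 embryos other than replicate 6 lay above the whole PCB40 range, and the Control embryos were at 2.04 to 2.7 CPM. The ahr2 call was lost when only the 12 libraries of the 2 groups were fitted (0.85, adjusted p 0.073). The gene LOC105937229, which the RefSeq table lists under the synonym AHR2 and beside AHR1 on another chromosome than ahr2, measured 3.6 to 5.69 CPM in PCB40 and 4.28 to 9.14 CPM in PCB400 and was not called (0.43, SE 0.21, adjusted p 0.236). How reads were divided between such related copies cannot be checked from the deposited values, so the split between ahr2 and LOC105937229 is uncertain, and which of them acts as the main receptor is not in the files. The receptor gene AHR1 was at 1.81 to 3.28 CPM in PCB40 and 0.664 to 2.23 CPM in PCB400 (-0.27, adjusted p 0.652). The partner genes arnt (0.28, adjusted p 0.463) and arnt2 (0.08, adjusted p 0.875) and the cochaperone gene ptges3b (-0.52, adjusted p 0.0586) did not pass. The lowest fold change of the list was that of hif1aa, a related hypoxia factor, at 3.0 to 25.5 CPM in PCB40 and 2.75 to 8.38 CPM in PCB400 (-1.28, SE 0.50, adjusted p 0.133). In all, 1 of 12 tested genes of the receptor and its partners was called (DESeq2 called 1 higher and 1 lower), and 1 of 4 tested target genes, beside 3.53% of all genes, counts too small to read as a result about either list. The 20 entries of the target list matched only 5 genes, and targets without a match were not examined. The target nqo1, a quinone reductase of the detoxification response, ran from 0.0771 to 0.742 CPM in PCB40 and from 0.234 to 3.2 CPM in PCB400 (1.38, SE 0.67, adjusted p 0.242).

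**Figure D2:**
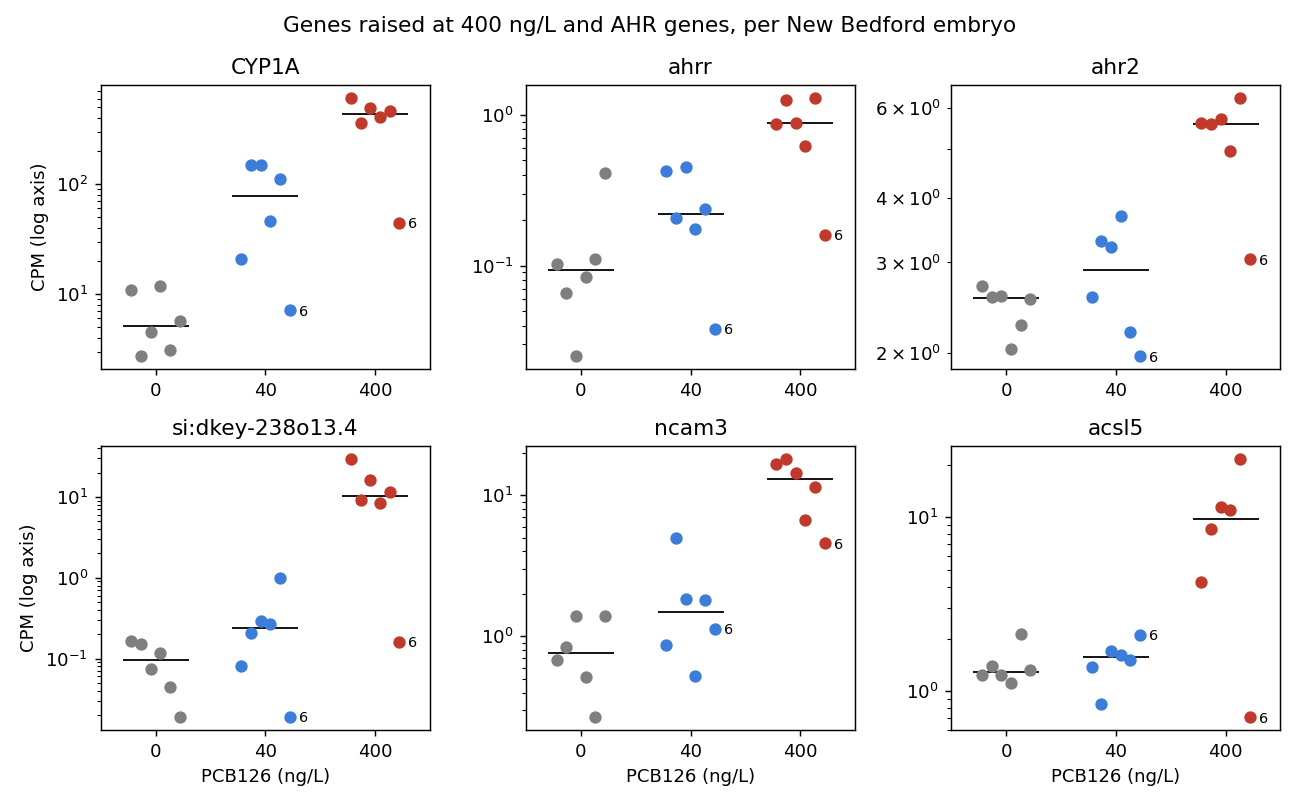
CPM on a log axis of CYP1A, ahrr, ahr2, si:dkey-238o13.4, ncam3 and acsl5 in each NBH embryo at 0, 40 and 400 ng/L PCB126, 6 embryos per dose, with a line at the median and replicate 6 of the exposed groups numbered. In all 6 genes PCB400 replicate 6 is the lowest of its group, at 44.5 CPM for CYP1A against 358 to 608 CPM in the other 5.

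The genes raised with the smallest p values included several of transport, lipid activation, adhesion and oxygen sensing. The gene si:dkey-238o13.4, known here only by its zebrafish clone name, had the largest step among the named genes for which a fold is given. It measured 0.0804, 0.206, 0.293, 0.27, 0.988 and 0.0189 CPM in PCB40 and between 8.34 and 29.6 CPM in PCB400 replicates 1 to 5, but 0.16 CPM in replicate 6 (log2 fold change 5.30, SE 0.80, adjusted p 0.00165, edgeR). Only replicate 6 of PCB400 stayed in the PCB40 range. The lowest PCB40 value lay under 3 counts, which equal 0.0451 to 0.0655 CPM there, so the size of this step is uncertain. The adhesion gene ncam3, named for neural cell adhesion molecules, stood at 0.52 to 4.97 CPM in PCB40 and at 16.8, 18.1, 14.4, 6.74, 11.6 and 4.58 CPM in PCB400 (6.47-fold, 2.69, SE 0.48, adjusted p 0.00722). The acyl-CoA synthetase gene acsl5, which activates fatty acids, stood at 0.845 to 2.12 CPM in PCB40 and at 4.23, 8.57, 11.5, 11.0, 21.7 and 0.71 CPM in PCB400. Its 5 higher embryos lay above, and replicate 6 below, every PCB40 embryo (2.64, SE 0.44, adjusted p 0.0047). Control embryos stood at 0.0187 to 0.165 CPM for si:dkey-238o13.4, 0.267 to 1.4 CPM for ncam3 and 1.12 to 2.14 CPM for acsl5.

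In slc16a1a and egln3 all 6 PCB400 embryos lay above all PCB40 embryos. The monocarboxylate transporter slc16a1a, which carries lactate and ketone bodies across cell membranes and the blood-brain barrier, measured 30.3 ± 8.21 CPM in PCB40 (SD, n = 6, highest 40.3) and 58.7, 88.0, 43.6, 73.6, 103 and 61.3 CPM in PCB400 (2.35-fold, 1.24, SE 0.20, adjusted p 0.00343). The prolyl hydroxylase gene egln3, a target and regulator of hypoxia-inducible factor, measured 11.0 to 12.3 CPM in PCB40 and 13.1 to 47.3 CPM in PCB400 (1.04, SE 0.22, adjusted p 0.0121), with Control at 7.63 to 18.0 CPM, partly inside the PCB400 range. The same separation held for rtbdn (280 ± 42.4 to 438 ± 47.3 CPM, 0.64, adjusted p 0.0122) and ubald1a (23.8 ± 6.67 to 41.4 ± 7.88 CPM, 0.80, adjusted p 0.014). In rtbdn the Control mean of 337 ± 50.6 CPM lay between the doses, and PCB400 was not called against Control (0.38, adjusted p 0.0986). The receptor genes gpr173 (0.53, adjusted p 0.00722) and gpr137c (1.17, adjusted p 0.014), si:ch73-103b9.2 (0.93, adjusted p 0.0103), the extracellular matrix gene ecm1a (1.53, adjusted p 0.0156) and mylipa (2.14-fold, adjusted p 0.016), a ubiquitin ligase of lipoprotein receptors, rose with 5 of 6 embryos above the PCB40 range. In each of these 5 genes the exception was PCB400 replicate 6. The gene si:dkey-219e21.4 measured 0 to 0.0568 CPM in PCB40, where 3 counts equal 0.0451 to 0.0655 CPM, and 0.0733 to 4.0 CPM in PCB400 (adjusted p 0.0145), so no fold is given. Control embryos ran from 0 to 3.68 CPM, and PCB400 was not called against them (0.76, SE 0.98, adjusted p 0.709), so that PCB40 was the group with low values throughout. Leaving out 1 library ended the calls of gpr137c and ecm1a (PCB400 replicate 5 or PCB40 replicate 5), mylipa (PCB400 replicate 2 or PCB40 replicate 5), ubald1a and si:dkey-219e21.4 (PCB40 replicate 5). It ended none of the other calls given here or those of si:dkey-238o13.4, ncam3 and acsl5. With only the 12 libraries fitted, however, the calls of acsl5, egln3, gpr173, si:ch73-103b9.2, ubald1a, gpr137c, ecm1a and mylipa were lost (adjusted p 0.0527 to 0.0751).

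Markers of white blood cells varied between embryos as a list and held 2 called genes, both higher. Averaged over the list, log2 CPM relative to the PCB40 mean ran from -0.42 to 0.51 in PCB400 (median 0.43). In PCB40 it ran from -0.32 to 0.28 (median -0.01). PCB400 replicates 1, 3, 4 and 5 lay above every PCB40 embryo, and replicates 2 and 6 did not. The group means did not differ by an exact permutation test (adjusted p 0.404). The leukocyte surface gene cd7al measured 0.0201 to 0.231 CPM in PCB40 and 1.19, 0.697, 0.612, 0.523, 1.66 and 0.229 CPM in PCB400 (8.14-fold, 3.02, SE 0.56, adjusted p 0.00722, edgeR). Its PCB40 median of 0.080 CPM lay near 3 counts, which equal 0.0451 to 0.0655 CPM there, and its lowest value lay under them. The size of this fold is therefore uncertain. The signalling adaptor hcls1 of blood cells measured 1.51 to 2.31 CPM in PCB40 and 3.49, 3.56, 3.04, 4.14, 3.1 and 1.6 CPM in PCB400 (0.79, SE 0.19, adjusted p 0.0245), a call lost without PCB400 replicates 2, 4 or 5 or PCB40 replicate 5. The other 26 of the 28 tested microglia and leukocyte markers were not called, beside 1.12% of all genes called higher, and the median of the list was 0.21. In another list, that of p53 and apoptosis, 1 of 24 tested genes was called (median 0.03), beside 1.12% of all genes called higher. This was the tumour necrosis factor receptor gene tnfrsf1a, at 0.644 to 2.05 CPM in PCB40 and 1.03 to 4.16 CPM in PCB400 (1.37, SE 0.34, adjusted p 0.0253). Its call was lost without PCB400 replicates 2 or 5 or PCB40 replicates 4, 5 or 6.

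The clearest group among the lower genes was that of cell cycle and DNA replication. Of 68 tested genes, 32 were called lower and 0 higher, beside 2.41% called lower over all genes, and 66 of 68 had a negative fold change. The median log2 fold change of the list was -0.82, and in 18 genes all 6 PCB400 embryos lay below all PCB40 embryos, beside 0.897% of all tested genes. Averaged over the list, log2 CPM relative to the PCB40 mean was -0.75, -0.83, -0.78, -0.61, -1.32 and -0.60 in the 6 PCB400 embryos. In PCB40 it was -0.14, -0.11, -0.21, 0.02, 0.28 and 0.18, and in Control it ran from -0.56 to 0.13. The lists and the members of each were chosen with results of these data known. The groups of exposed embryos did not overlap, and here PCB400 replicate 6 lay with its group. In whole brains, fewer dividing cells and less RNA of these genes per cell cannot be told apart.

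The list members with the smallest p values included genes of chromosome segregation. The chromosomal passenger genes birc5a and aurkb, whose products correct and sense kinetochore attachment, were below every PCB40 embryo in all 6 PCB400 embryos. For birc5a the values were 49.6, 60.9, 56.8, 65.9, 83.8 and 80.2 CPM in PCB40 and 29.0, 25.8, 27.4, 35.2, 14.9 and 28.4 CPM in PCB400 (2.47-fold lower, -1.30, SE 0.26, adjusted p 0.0102, edgeR). For aurkb they were 41.4 to 63.1 CPM in PCB40 and 11.5 to 28.1 CPM in PCB400 (-1.28, SE 0.26, adjusted p 0.0102). The spindle protein gene tacc3 went from 24.8 to 38.8 CPM to 8.01 to 16.6 CPM (-1.22, SE 0.24, adjusted p 0.0101), and the kinesin gene kif2c, which depolymerises microtubules at centromeres and is not in the list, from 17.5 to 22.1 CPM to 5.15 to 10.7 CPM (-1.30, SE 0.24, adjusted p 0.00783). Control embryos reached lower than PCB40 in all 4 genes, to 33.8 CPM for birc5a, 22.4 for aurkb, 13.2 for tacc3 and 9.42 for kif2c, each inside the PCB400 range. These 4 calls held in every alternative setting tried.

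Kinase and replication genes of the list were chosen for mention after their values were seen. The mitotic kinase gene cdk1 measured 81.3 to 113 CPM in PCB40 and 23.1 to 56.2 CPM in PCB400 (-1.22, SE 0.26, adjusted p 0.014). The helicase gene mcm7, which unwinds DNA at the fork, measured 72.3 to 120 CPM and 40.6 to 68.3 CPM (-0.87, SE 0.19, adjusted p 0.014), again with no overlap. The G1 kinase genes cdk4 (-1.15, adjusted p 0.011) and cdk2 (-1.19, adjusted p 0.0214), the mitotic cyclin gene ccnb1 (-1.12, adjusted p 0.0239) and the topoisomerase gene top2a (-0.80, adjusted p 0.0464) were also called. The sliding clamp gene pcna (-0.85, SE 0.26, adjusted p 0.0528) and the proliferation marker mki67 (-0.71, SE 0.27, adjusted p 0.127) were not. Members with a fold change near 0 included the checkpoint genes chek1 (0.04, SE 0.17) and wee1 (-0.02, SE 0.11) and the cyclin gene ccnd1 (-0.04, SE 0.24). The gene ccna1, a germ-line cyclin in other vertebrates, was called lower with another pattern. It stood at 11.7 CPM in PCB40 replicate 6, at 1.17 CPM in replicate 1 and at 0.0668 to 0.415 CPM in all other NBH embryos.

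The number of cell cycle genes called lower ranged from 5 to 43 with single libraries left out. It was 11, 20 and 5 without PCB400 replicates 2, 3 and 5, and 18, 9 and 19 without PCB40 replicates 4, 5 and 6. It was 40 without PCB400 replicate 6, 43 without PCB40 replicate 1 and 41 without both. With the length slope as a covariate 13 of the list were called lower, and with only the 12 libraries 15. The median of the list moved less, from -0.87 to -0.72 with 1 library left out and to -0.67 with the length slope.

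**Figure D3:**
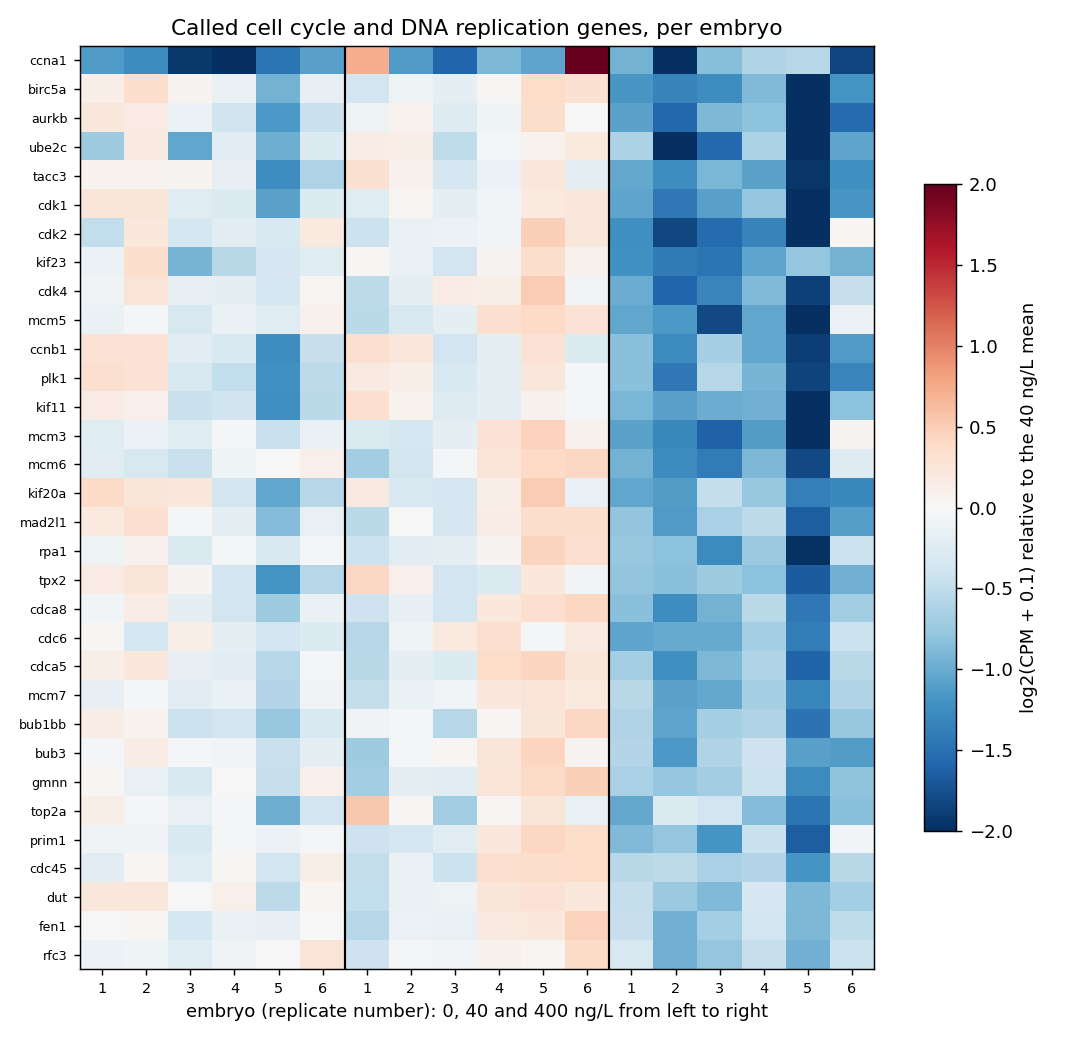
Heat map of the 32 called cell cycle and DNA replication genes (rows) in the 18 NBH embryos (columns, replicates 1 to 6 at 0, 40 and 400 ng/L), coloured by log2(CPM + 0.1) relative to the PCB40 mean of the gene. The 6 PCB400 columns are blue, below the PCB40 mean, in nearly all rows, with replicate 5 the deepest, while the row of ccna1 differs through PCB40 replicate 6 at 11.7 CPM.

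Progenitor and neuron lists had medians near 0 and a few lower genes. Of 28 tested genes of neural progenitors and radial glia, 2 were called lower and 0 higher (median -0.07), and of 49 genes of neuron differentiation and growth 4 were called lower and 1, ncam3, higher (median -0.01), beside 2.41% of all genes called lower and 1.12% higher. The proneural factor gene ascl1a measured 34.6, 32.3, 26.3, 30.8, 39.4 and 28.9 CPM in PCB40 and 24.8, 16.4, 19.3, 17.0, 14.7 and 18.7 CPM in PCB400 (1.73-fold lower, -0.79, SE 0.17, adjusted p 0.0143, edgeR). The related neurog1, which drives neuronal fate, measured 34.2 to 52.4 CPM in PCB40 and 16.8 to 32.5 CPM in PCB400 (-0.83, SE 0.18, adjusted p 0.015). In both the exposed groups did not overlap, while Control, at 17.3 to 34.1 CPM for ascl1a and 23.6 to 50.8 CPM for neurog1, reached into the PCB400 range. PCB400 was called against Control for neurog1 (-0.64, adjusted p 0.0442) but not for ascl1a (-0.47, adjusted p 0.111). Both calls between the doses were lost without PCB400 replicate 5 or PCB40 replicate 5. Insm1a, a factor of newborn neurons, and gap43, of growing axons, were the other called members of the neuron list with tubb5. They are named after their values were seen, with insm1a at -0.81 (SE 0.23, adjusted p 0.0407) and gap43 at -0.62 (SE 0.18, adjusted p 0.0434). The tubulin gene tubb5 fell from 2558 ± 716 to 1343 ± 362 CPM (-0.93, SE 0.25, adjusted p 0.0359), with PCB40 replicate 1 at 1240 CPM inside the PCB400 range. The actin gene actb1 (-1.07, SE 0.23, adjusted p 0.014) and the actin-binding tmsb4x (-0.45, SE 0.12, adjusted p 0.0339) were the other called members of the cytoskeleton list. In that list 3 of 24 tested genes were called lower and 0 higher (median -0.27), beside 2.41% of all genes called lower. The call of actb1 was lost without PCB400 replicate 5. Those of tubb5 and tmsb4x were lost without any of PCB400 replicates 2, 3 and 5 and PCB40 replicates 2 to 5, and also without PCB40 replicate 6 for tubb5 and PCB400 replicate 4 for tmsb4x. The calls of all 3 cytoskeleton genes were also lost with only the 12 libraries fitted and with the length slope as a covariate. With the slope the log2 fold changes were -0.47 for tubb5, -0.77 for actb1 and -0.42 for tmsb4x.

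Sterol synthesis was the next list by its share of called genes. Of 23 tested genes 6 were called lower and 0 higher, beside 2.41% called lower over all genes, 20 had a negative fold change, and the median was -0.55. Over the list, log2 CPM relative to PCB40 was -0.76, -1.01, -0.75, -0.72 and -0.80 in PCB400 replicates 1 to 5 and -0.19 in replicate 6, against -0.27 to 0.21 in PCB40. Replicate 6 was thus the only PCB400 embryo inside the PCB40 range. Without it, the median of the list was -0.80 and 11 genes were called lower.

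The called sterol genes span the pathway from its control point to the late steps. The reductase gene hmgcra, the rate-limiting enzyme, measured 9.61, 14.8, 17.1, 25.5, 24.2 and 19.9 CPM in PCB40 and 5.64, 5.73, 8.71, 9.27, 5.64 and 11.8 CPM in PCB400 (-1.25, SE 0.31, adjusted p 0.0249, edgeR). The lanosterol demethylase gene CYP51 measured 9.47 to 16.7 CPM in PCB40 and 3.7, 4.2, 3.98, 3.97, 6.32 and 13.7 CPM in PCB400 (-1.10, SE 0.28, adjusted p 0.0254), with replicate 6 again in the PCB40 range. The methyl oxidase gene msmo1 measured 34.6 ± 9.64 CPM in PCB40 (SD, n = 6) and 13.6 ± 5.04 CPM in PCB400, where replicate 6 was highest at 23.4 CPM (2.54-fold lower, -1.34, SE 0.28, adjusted p 0.0122). The reductase genes tm7sf2 (-1.16, SE 0.23, adjusted p 0.00848) and hsd17b7 (-1.11, SE 0.30, adjusted p 0.0371) act beside them. In tm7sf2 all 6 PCB400 embryos, at 3.39 to 4.85 CPM, lay below every PCB40 embryo, the lowest of which was at 5.75 CPM. The low-density lipoprotein receptor gene ldlrb was at 0.0619 to 1.02 CPM in PCB40 and at 0 to 0.0687 CPM, at or under 3 counts, in PCB400 (adjusted p 0.0214). Control stood at 0.112 ± 0.132 CPM, and PCB400 was not called against Control in ldlrb (adjusted p 0.197). The epoxidase gene sqlea missed the threshold (-1.71, SE 0.51, adjusted p 0.0514), and the master regulator srebf2 stood at -0.02 (SE 0.33, adjusted p 0.985). Of these, hmgcra, CYP51, hsd17b7, sqlea and srebf2 were chosen after their values were seen. Between 2 and 11 sterol genes were called with 1 library left out, with 2 without PCB400 replicates 2 or 5 or PCB40 replicate 4, 3 without PCB40 replicate 5, 9 without PCB40 replicate 1 and 11 without PCB400 replicate 6. The calls of tm7sf2 and msmo1 held in every setting, and that of ldlrb was lost without PCB400 replicates 2 or 5 or PCB40 replicate 4.

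Fatty acid genes moved both ways, with a median of 0.01 over 36 tested genes. Besides acsl5 and slc16a1a, which rose, 4 were called lower, beside 1.12% and 2.41% of all genes. The regulator of lipogenesis mid1ip1l measured 491, 542, 674, 614, 642 and 670 CPM in PCB40 and 347, 252, 359, 374, 291 and 460 CPM in PCB400, without overlap (1.74-fold lower, -0.80, SE 0.15, adjusted p 0.00833, edgeR). The other 3, chosen after their values were seen, were the desaturase fads2, the elongase elovl5 and the mitochondrial transferase cpt2. In fads2, which makes long-chain polyunsaturated fatty acids, the level was 22.4 ± 8.90 CPM in PCB40 and 6.33 ± 4.89 CPM in PCB400 (SD, n = 6 each), and only replicate 6 of PCB400, at 15.4 CPM, lay in the PCB40 range (-1.82, SE 0.51, adjusted p 0.0406). In elovl5 it was 12.8 ± 3.44 and 6.41 ± 3.52 CPM (1.99-fold lower, adjusted p 0.0348), again with only PCB400 replicate 6, at 13.2 CPM, in the PCB40 range. The ceramide synthase gene cers5, outside the list, fell from 19.3 to 27.5 CPM to 11.0 to 18.3 CPM (-0.72, SE 0.14, adjusted p 0.00833). The calls of mid1ip1l and cers5 held in every setting. The number of lower genes in the list was 1 without PCB400 replicates 2, 3 or 5 or PCB40 replicates 4 or 5, 2 without PCB400 replicates 1 or 4, and 7 without PCB400 replicate 6.

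Lists of protein folding and turnover had negative medians, with most members not called. Of 45 tested heat shock and chaperone genes 6 were called lower and 0 higher (median -0.29), of 44 proteasome subunits 6 and 0 (median -0.46), and of 26 genes of the stress response of the endoplasmic reticulum (ER) 3 and 1 (median -0.35), beside 2.41% of all genes called lower and 1.12% higher. The chaperone hspa4a, a nucleotide exchange factor of the Hsp110 family, measured 62.5, 94.6, 108, 85.9, 118 and 71.4 CPM in PCB40 and 25.3 to 51.0 CPM in PCB400 replicates 1 to 5, with replicate 6 at 63.3 CPM (2.16-fold lower, -1.11, SE 0.21, adjusted p 0.00749, edgeR), so that only PCB400 replicate 6 was inside the PCB40 range. Its relative hspa4b (-0.69, SE 0.15, adjusted p 0.014) and ppp5c, an Hsp90-bound phosphatase (-0.73, SE 0.16, adjusted p 0.014), fell with it. The proteasome activator gene psme3 went from 112 to 215 CPM to 73.4 to 131 CPM (-0.77, SE 0.17, adjusted p 0.0149), and the lid and base subunits psmd13 and psmd1 both had a log2 fold change of -0.46 (adjusted p 0.0339 and 0.0363). The ER chaperones pdia4 (-0.88, adjusted p 0.0164) and hsp90b1 (-0.68, adjusted p 0.0348) and the secreted factor manf (-0.91, adjusted p 0.0451) were lower. The called ER gene that was higher, named after its value was seen, was ddit3, a transcription factor of prolonged ER stress, at 24.2 to 34.9 CPM in PCB40 and 29.8 to 45.8 CPM in PCB400 (0.46, SE 0.13, adjusted p 0.0489).

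These counts moved with single libraries. The proteasome list had 0 lower genes without PCB400 replicates 2 or 5 or PCB40 replicate 5, 1 without PCB400 replicate 3 or PCB40 replicate 4, 2 without PCB40 replicate 6, 3 without PCB400 replicate 1 or PCB40 replicate 3 and 25 without PCB40 replicate 1. With the length slope as a covariate it had 0, and its median went from -0.46 to -0.16, and with only the 12 libraries it also had 0. The chaperone list had 2 lower genes without PCB40 replicate 5, 3 without PCB400 replicates 2, 3 or 5 or PCB40 replicates 4 or 6, 11 without PCB400 replicate 6 and 13 without PCB40 replicate 1, and it had 3 with the length slope and 1 with the 12 libraries. The call of hspa4a held in every setting and that of ppp5c in every fit with 1 library left out. That of hspa4b was lost without PCB40 replicate 5, those of psme3 and pdia4 without PCB400 replicates 2 or 5 or PCB40 replicate 5. The calls of psmd13, psmd1, hsp90b1 and manf were each lost without any one of PCB400 replicates 2, 3 or 5 or PCB40 replicates 4 or 5, and without others.

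Lists of splicing and ribosome assembly also had negative medians, again with most members not called. Of 62 tested splicing factors 12 were called lower and 0 higher (median -0.28), and of 48 ribosome biogenesis genes 5 were called lower and 1 higher (median -0.39, 45 negative), beside 2.41% of all genes called lower and 1.12% higher. The Sm core gene snrpd2 measured 200, 360, 364, 412, 415 and 394 CPM in PCB40 and 234, 165, 190, 248, 177 and 217 CPM in PCB400 (1.74-fold lower, -0.80, SE 0.20, adjusted p 0.0254, edgeR). Only PCB40 replicate 1 lay in the PCB400 range. The spliceosomal ligase gene prpf19 (-0.67, adjusted p 0.03) and the splicing regulator srsf9 (-0.50, adjusted p 0.0306), the latter without overlap of the groups, were also lower. The nucleolar genes nop58 (-0.85, SE 0.19, adjusted p 0.0168) and ddx47 (-0.51, SE 0.12, adjusted p 0.0214) fell, while the helicase gene ddx21 rose (0.64, SE 0.17, adjusted p 0.0344). Outside the lists, mak16 (1.99-fold lower, adjusted p 0.00848) and wdr18 (-1.05, adjusted p 0.00877), both of large ribosomal subunit assembly, fell as well. Of 77 cytosolic ribosomal protein genes 2 were called lower, rpl5a (-0.94, adjusted p 0.0152) and rpl7l1 (-0.65, adjusted p 0.0339), a share near the 2.41% of all genes, and the median was -0.05.

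The splicing count was 0 without PCB400 replicates 2, 3 or 5 or PCB40 replicates 4 or 5, 4 without PCB40 replicate 3, 6 without PCB40 replicate 6 and 22 without PCB40 replicate 1. The ribosome biogenesis count of lower genes was 0 without PCB400 replicates 2 or 5 or PCB40 replicate 5, 1 without PCB40 replicate 4, 2 without PCB400 replicate 3 or PCB40 replicates 3 or 6, 3 without PCB400 replicates 1 or 4, 19 without PCB400 replicate 6 and 17 without PCB40 replicate 1. The medians of both lists stayed between -0.51 and -0.25 in all these fits. With the length slope as a covariate 2 splicing and 1 ribosome biogenesis genes were called lower. With the pituitary, posterior hox and muscle marker scores as covariates these counts were 4 and 2, and with only the 12 libraries 1 and 0. The fold change of snrpd2 went from -0.80 to -0.44 with the slope, and its call was lost (adjusted p 0.0728). The call of wdr18 held in every setting and that of mak16 in every fit with 1 library left out. Those of nop58, ddx47, snrpd2, prpf19, srsf9, rpl5a, rpl7l1 and ddx21 were each lost without PCB400 replicates 2 or 5 or PCB40 replicate 5, and for all but nop58 and rpl5a without others.

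**Figure D4:**
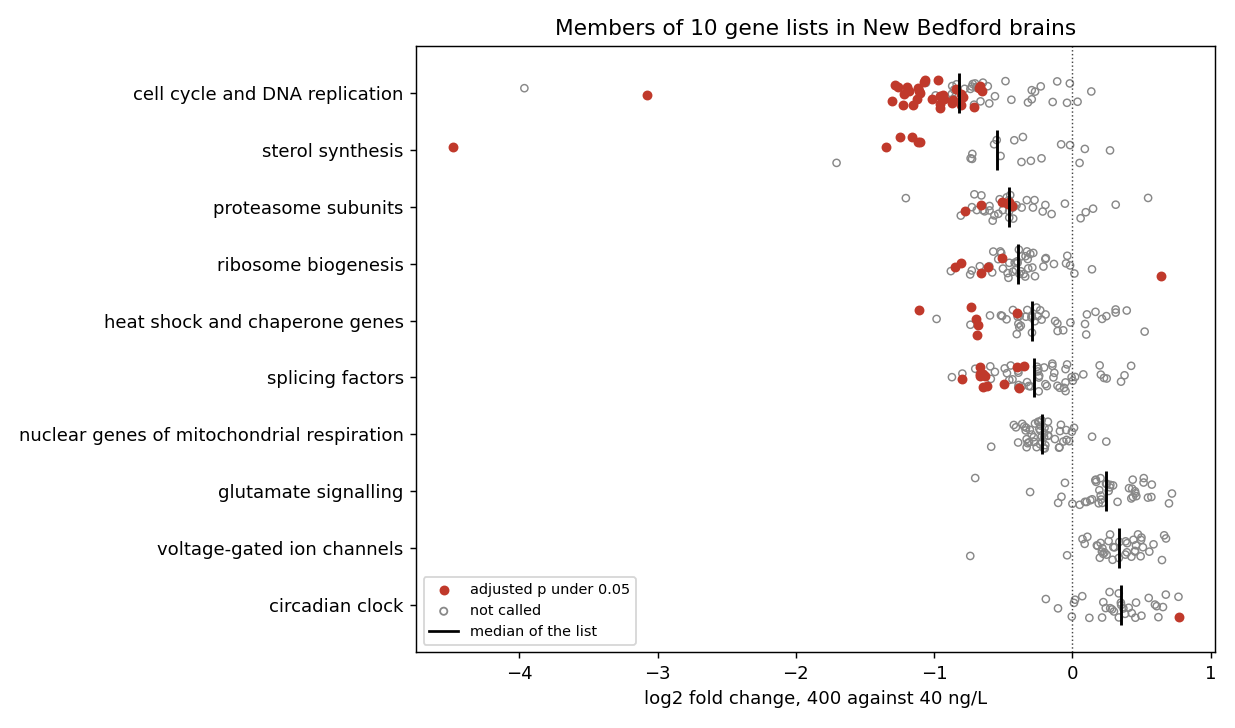
Log2 fold change at 400 against 40 ng/L (x axis) of each tested member of 10 gene lists (rows), with genes called at an adjusted p under 0.05 filled in red, others as open circles and the median of the list as a black line. Cell cycle genes have a median of -0.82 and sterol genes of -0.55, while circadian and ion channel genes have medians of 0.35 and 0.34 with 1 and 0 members called.

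The other named genes called lower belonged to no single list. The arginine methyltransferase gene carm1, a coactivator of transcription, measured 62.5, 74.8, 75.6, 70.4, 67.1 and 59.9 CPM in PCB40 and 33.7, 34.3, 33.7, 29.3, 44.2 and 54.0 CPM in PCB400, without overlap (1.79-fold lower, -0.84, SE 0.15, adjusted p 0.00677, edgeR). The chromatin remodeller smarca5 went from 97.5 to 158 CPM to 55.1 to 93.1 CPM, also without overlap (-0.77, SE 0.15, adjusted p 0.00833), and the histone deacetylase hdac1 from 200 ± 71.5 to 104 ± 26.6 CPM (-0.94, SE 0.20, adjusted p 0.014). Of 87 tested chromatin modifiers, 3 were called lower (these 2 and smarcd1, at -0.44) and 1 higher, the corepressor ncor1 (0.81, adjusted p 0.0465, named after its value was seen), or 4.6% beside 3.53% of all genes, while 58 of the 87 had a positive fold change (median 0.14). The glucosyltransferase gene poglut1, which modifies Notch receptors, fell from 21.6 to 42.6 CPM to 8.67 to 18.1 CPM (-1.09, SE 0.21, adjusted p 0.00833). The Mediator kinase cdk8 (-0.81, adjusted p 0.00848), the Ran exchange factor rcc1 (-0.98, adjusted p 0.00872), the membrane fusion gene stx4 (-0.73, adjusted p 0.00921) and zc3h15 (-0.39, adjusted p 0.00848) were lower as well. The import gene chchd4b (-0.68, SE 0.14, adjusted p 0.0139) and timm22 (-0.51, SE 0.12, adjusted p 0.0242) were the called members of 28 genes of mitochondrial import, beside 2.41% of all genes called lower. The call of hdac1 was lost without PCB400 replicate 5 or PCB40 replicate 5, that of timm22 without PCB400 replicates 2, 3 or 5 or PCB40 replicate 5, and that of smarcd1 without these or PCB400 replicate 4 or PCB40 replicates 3 or 4.

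Redox, metal and stress hormone lists held 2 called genes each, with mt2 in both of the last, beside 3.53% of all genes. The lipid peroxidase gene gpx4a, which protects membranes, was highest at the lower dose. It measured 752, 955, 1393, 776, 778 and 1122 CPM in PCB40 and 269, 249, 254, 533, 449 and 337 CPM in PCB400 (-1.47, SE 0.42, adjusted p 0.0466, edgeR), against 421 to 556 CPM in Control. Thus PCB40 lay above both other groups without overlap. By the test, however, gpx4a was not called against Control at 40 ng/L (0.99, SE 0.42, adjusted p 0.99986) or at 400 ng/L (-0.48, adjusted p 0.545). Its 2 dose steps were not shown to differ (adjusted p 0.297). The glutamate-cysteine ligase subunit gclm, of glutathione synthesis, was lower (-0.73, SE 0.18, adjusted p 0.023), and these were the 2 called of 31 redox genes. Of 26 metal genes mt2 and slc30a5 were called, and of 16 stress hormone targets mt2 and zbtb16b. Metallothionein mt2, which binds zinc and copper and responds to glucocorticoids, measured 198 to 326 CPM in PCB40 and 440, 382, 502, 447, 707 and 236 CPM in PCB400 (1.77-fold, 0.83, SE 0.19, adjusted p 0.0207). The Control mean lay between, with embryos at 226 to 419 CPM, and PCB400 was not called against it (0.53, adjusted p 0.105). The stress hormone target zbtb16b rose (0.52, SE 0.13, adjusted p 0.0261), and the zinc transporter slc30a5 fell without overlap of the groups (-0.31, SE 0.08, adjusted p 0.0222). The phosphofructokinase gene pfkma, of glycolysis, fell from 0.68 to 1.23 CPM to 0.234 to 0.581 CPM (-1.35, SE 0.39, adjusted p 0.0476), with Control at 0.2 to 1.26 CPM, across both. The drug-metabolising CYP3A30 ran from 0.165 to 2.07 CPM in PCB40 and from 0.128 to 0.412 CPM in PCB400 (-2.11, SE 0.55, adjusted p 0.0323). Control stood at 0.535 ± 0.423 CPM, and PCB400 was not called against it (-1.16, adjusted p 0.226). CYP3A30 was the 1 call between the doses among 11 tested xenobiotic genes, a list whose 50 entries matched 13 genes. Each of these calls was lost without PCB400 replicate 5 or PCB40 replicate 5, and all but that of mt2 without PCB400 replicate 2. In gpx4a, pfkma and slc30a5 the exposed groups nevertheless did not overlap. With 1 library left out their log2 fold changes ran from -1.63 to -1.33, from -1.53 to -1.25 and from -0.34 to -0.28. Further libraries that ended a call were PCB40 replicate 4 for mt2, PCB400 replicate 3 and PCB40 replicates 4 and 6 for zbtb16b, PCB400 replicate 1, PCB400 replicate 4 and PCB40 replicate 4 for CYP3A30, and PCB400 replicates 1 and 3 and PCB40 replicates 3, 4 and 6 for pfkma and gpx4a (for gpx4a PCB40 replicate 2 as well).

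Lists of mature neuronal function and of the clock held positive medians with few or no calls. Of all 23292 tested genes 12786 had a positive fold change, 1.12% were called higher and 20.2% had an unadjusted p under 0.05 in either direction. The 1 call each in the circadian and peptide lists is too few to read as a result about the list. Of 33 tested circadian genes 30 had a positive fold change (median 0.35). Among the 33, 13 were higher and 0 lower at an unadjusted p under 0.05 by edgeR. The 1 called gene was the PAR bZIP output factor tefb. It measured 233, 135, 164, 95.8, 111 and 146 CPM in PCB40 and 229, 311, 295, 225, 229 and 220 CPM in PCB400 (1.71-fold, 0.77, SE 0.22, adjusted p 0.0458, edgeR). Only PCB40 replicate 1 lay in the PCB400 range, and the call was lost without any one of the 12 libraries other than PCB400 replicate 6 or PCB40 replicate 1. The clock repressor per1b missed the threshold (0.62, SE 0.21, adjusted p 0.0858). The hour at which brains were taken is not in the labels, so its part was not tested. Of 40 voltage-gated channel genes 38 were positive (median 0.34) and 0 were called by edgeR, with 15 higher at an unadjusted p under 0.05, 3 by DESeq2 and 0 by limma voom. Of 42 glutamate signalling genes 37 were positive (median 0.25) and 0 were called, with 8 higher at an unadjusted p under 0.05 and 0 by DESeq2 or limma voom. The neuropeptide gene nts, for neurotensin, was the 1 call among 29 hypothalamic peptides (15.1 ± 4.40 CPM in PCB40, 22.4 ± 5.15 CPM in PCB400, 0.56, SE 0.16, adjusted p 0.0424). That call was lost without PCB400 replicates 1 to 5 or PCB40 replicates 2 to 5.

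Levels of these neuronal lists moved with the length slope, and its part in them was not tested beyond the values given here. Over the channel list, log2 CPM relative to PCB40 was highest in PCB400 replicates 6 (0.75) and 2 (0.51) and PCB40 replicate 1 (0.59), the 3 libraries with a slope above 0.1, and it ran from -0.19 to 0.30 in the other 9. With the slope as a covariate the medians went to 0.13 for channels, 0.06 for glutamate genes and 0.16 for circadian genes. The nuclear genes of mitochondrial respiration mirrored this pattern. Of 50 tested genes 47 were negative (median -0.22) and 0 were called by edgeR, with 16 lower at an unadjusted p under 0.05, 1 by DESeq2 and 0 by limma voom. Of all 23292 tested genes 10505 were negative, and 20.2% had an unadjusted p under 0.05 in either direction. Their median was 0.01 with the slope as a covariate, and 7 were called lower without PCB40 replicate 1. Between the groups the slope itself was 0.0265 ± 0.111 in PCB400 and -0.0801 ± 0.116 in PCB40 (SD, n = 6 each, exact permutation test, two-sided p 0.126).

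**Figure D5:**
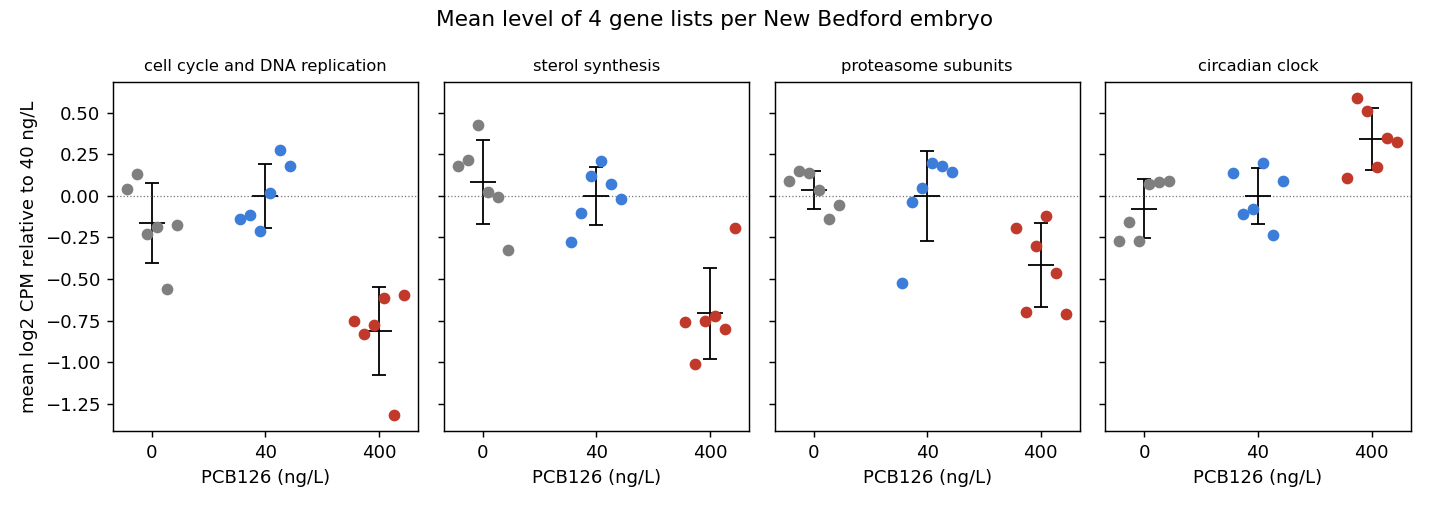
Mean log2 CPM over the members of 4 gene lists relative to the PCB40 mean (y axis) in each NBH embryo at 0, 40 and 400 ng/L PCB126, with the group mean and SD in black (n = 6 per dose). For cell cycle genes the 6 PCB400 embryos (-1.32 to -0.60) lie below the 6 PCB40 embryos (-0.21 to 0.28), whereas in the sterol, proteasome and circadian panels the groups overlap.

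Markers of other cells that a brain dissection can carry were compared over the 12 libraries. Of 16 technical and marker measures none passed an exact permutation test with Benjamini-Hochberg adjustment (two-sided, lowest adjusted p 0.242), and 2 had a raw p under 0.05. These were the mean level of lens crystallin genes, lower at 400 ng/L (-0.421 ± 0.228 against 0.00425 ± 0.328, p 0.0281), and of endothelial and blood-brain barrier genes, higher (0.19 ± 0.136 against -0.128 ± 0.255, p 0.0303). The lens genes crybgx and bfsp2 were called lower, each under 2 CPM except bfsp2 in PCB40 replicates 3 and 5, and both calls were lost without PCB400 replicates 1 to 5 or PCB40 replicates 4 or 5, and without others. The skin marker agr2 was called lower too (-1.23, SE 0.33, adjusted p 0.0351). Its call was lost without PCB400 replicates 1, 2, 4 or 5 or PCB40 replicates 3 to 6. The summed CPM of the 11 tested liver and plasma genes ran from 7707 to 11111 in PCB400 and from 11492 to 16732 in PCB40, with no overlap. Of the 11, 0 were called by edgeR, 1 by DESeq2 and 0 by limma voom, and 2 had an unadjusted p under 0.05, beside 20.2% of all genes. The apolipoprotein gene apoa2 held most of that sum (9969 ± 1077 CPM in PCB40, 6492 ± 1287 in PCB400, adjusted p 0.204). Summed muscle markers ran from 43.0 to 182 CPM in PCB40 and from 47.3 to 232 in PCB400. Summed posterior hox genes ran from 0.52 to 40.3 CPM in PCB40 (median 17.8) and from 0.784 to 37.6 in PCB400 (median 1.91). All 6 tested posterior hox genes had a negative fold change (median -1.30), and 0 were called. The pituitary score was -1.84 in PCB40 replicate 6 and -1.71 and -1.54 in PCB400 replicates 2 and 6, against 0.892 to 1.39 in the rest. Whether any of these tissues contributed to the gene results was not tested one by one. With the pituitary, posterior hox and skeletal muscle scores as covariates 401 genes were called, 390 of them among the 822. The lens, endothelial, skin and liver scores were not used as covariates.

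Both doses were also set against the unexposed embryos. Between PCB40 and Control edgeR called 0 genes, limma voom 0 and DESeq2 18, and at an unadjusted p under 0.05 there were 713 (3.06%). Between PCB400 and Control edgeR called 870 (3.74%), 332 higher (1.43%) and 538 lower (2.31%), and at an unadjusted p under 0.05 there were 4809 (20.6%). The comparisons share libraries and are therefore given only side by side. For CYP1A the 3 levels were 6.47 ± 3.96, 80.3 ± 63.9 and 396 ± 192 CPM at 0, 40 and 400 ng/L (SD, n = 6 each), and its first step, with a log2 fold change of 3.63 (SE 0.67, adjusted p 0.112), was larger than its second, at 2.30, by a difference that did not pass (-1.33, SE 1.02, adjusted p 0.752). For ahr2 they were 2.45 ± 0.245, 2.83 ± 0.684 and 5.19 ± 1.13 CPM, and for tm7sf2 9.60 ± 1.57, 9.24 ± 2.21 and 4.13 ± 0.626 CPM. For birc5a the Control embryos ran from 33.8 to 83.2 CPM, which covers the PCB40 range of 49.6 to 83.8 CPM almost whole, and PCB400 from 14.9 to 35.2 CPM. The cell cycle list had a median log2 fold change of 0.17 at 40 ng/L and -0.68 at 400 ng/L, each against Control. For olig4, of the oligodendrocyte and myelin list, the order differed, with 8.47 ± 2.84 CPM in Control, 11.5 ± 3.24 CPM in PCB40 and 5.19 ± 2.89 CPM in PCB400. Neither dose was called against Control (edgeR, adjusted p 0.99986 at 40 and 0.204 at 400 ng/L). Olig4 was the 1 called gene between the doses among 26 tested in that list (median 0.04), beside 2.41% of all genes called lower. Its call between the doses (-1.14, SE 0.32, adjusted p 0.0426) was lost without PCB400 replicates 2, 4, 5 or 6 or any of PCB40 replicates 2 to 6.

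A direct test asked whether the step from 40 to 400 ng/L differed from the step from 0 to 40 ng/L. It called 2 genes (0.00859%), ccna1 and LOC105928083, while 2009 (8.63%) had an unadjusted p under 0.05, so for other genes, CYP1A included, the steps were not shown to differ. Both had a high mean in PCB40 with an SD above that mean, ccna1 at 2.32 ± 4.64 CPM against 0.179 ± 0.0797 in Control and 0.272 ± 0.145 in PCB400, and LOC105928083 at 9.39 ± 21.5 CPM against 0.0795 ± 0.0632 and 0.152 ± 0.13. For ccna1 the mean rested mainly on the single PCB40 embryo described above with the cell cycle genes. For LOC105928083 no PCB400 embryo lay below every PCB40 embryo, so neither gene was high in PCB40 throughout.

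The NBH dose step was also set beside the response of Scorton Creek brains to 40 ng/L, which shares no library with it. The doses differ, so the values show a step up from a lower dose in one population next to a first exposure in the other. CYP1A was at 1.08 to 11.0 CPM in SCO Control and 97.8, 119, 107, 151, 270 and 130 CPM in SCO PCB40, a log2 fold change of 4.96 (SE 0.71) against 2.30 for the NBH step (adjusted p of the difference 0.0564, edgeR). Of the 822 genes of the NBH step 25 (3.04%) were called in Scorton Creek too, which are 4.02% of its 622 calls, beside 2.67% of all genes called there (0.751% higher and 1.92% lower). Of these 25, 16 were higher in both, 2 lower in both and 7 of opposite sign. The genes higher in both included CYP1A, si:dkey-238o13.4 (5.30 and 6.39), ncam3 (2.69 and 2.63), egln3 (1.04 and 0.91), hcls1 (0.79 and 1.06) and the retinol dehydrogenase gene rdh8a (0.63 in both). The gene with the smallest p of the whole NBH step, LOC118565211, was also among them (5.09 and 5.32), and it carries no name in the annotation used. The gene with a symbol that was lower in both was tmsb4x (-0.45 and -0.42). Of these, rdh8a and LOC118565211 were chosen after their values were seen.

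Most genes called lower at the NBH step were not lower in Scorton Creek. Of 561 genes called lower at the NBH step 151 were also negative, at any p, in Scorton Creek, and of 261 called higher 143 were positive, while over all tested genes 43.7% had the same sign. The cell cycle list had a median of 0.31 in Scorton Creek. In a direct test 39 of the 68 genes differed between the 2 responses, all lower at the NBH step, beside 3.27% of all genes in that direction and 3.37% in the other. For tacc3 the test of the difference gave -1.81 (adjusted p 0.00553), for kif2c -1.65 (adjusted p 0.00823) and for birc5a -1.89 (adjusted p 0.00581). Opposite calls were those of olig4 (-1.14 at the NBH step, 1.29 in Scorton Creek), fam53b (-0.71 and 0.60) and zbtb16b (0.52 and -0.49), with adjusted p of the difference of 0.00553, 0.00544 and 0.00553. In all, 1547 genes (6.64%) differed between the responses, and 5516 (23.7%) had an unadjusted p under 0.05. That number of calls was 185 with the length slope as a covariate and 743 with the marker scores. The slope ran from 0.016 to 0.137 in SCO Control and from -0.185 to 0.198 in SCO PCB40, where replicates 4, 5 and 6 were negative. At the NBH step its mean was higher at 400 than at 40 ng/L (0.0265 and -0.0801). The part of the slope in the cell cycle and single-gene differences above was not tested. Fam53b was chosen after its values were seen.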

How the data were processed

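Total RNA of single whole brains was sequenced, 1 library per embryo, 6 per group and 36 in all. The authors quantified transcripts before deposit, per the file headers in Salmon's format. Salmon 1.3.0 and edgeR 3.30.3 are named in the submitters' processing notes, while genome build, trimming and counting strand are not given in the sources used here. The deposited expected counts per RefSeq transcript (56244 per file) were summed to 31637 genes with the RefSeq gene table and rounded to whole numbers. The deposited TPM values, scaled by effective length per the file headers, were not used for tests. Coordinates are not printed, because no build is named.

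Genes passing edgeR's filterByExpr (23292) were fitted with edgeR 4.0.16 in R 4.3.3 (quasi-likelihood, TMM factors, all 36 libraries, 1 mean per group), so that all groups share an estimate of the spread. P-values were two-sided and adjusted by Benjamini-Hochberg over all tested genes at 0.05, and the SE is the fold change divided by the root of F. Marker and technical measures were compared by exact permutation over 924 splits. The procedure was tested on simulated data. Depth was 38.5 to 66.4 M estimated reads per library, and 3 counts, taken as the floor, equal 0.0451 to 0.0779 CPM in these 12 libraries.

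Named genes were the 15 called genes with a symbol and the smallest p in each direction, up to 3 called members per list by p, and CYP1A, ahrr and ahr2. The members, lists and tests were chosen with earlier results of these data known. Of 2364 entries in 49 lists 1643 matched a gene. Alternatives were other scaling, filters, DESeq2 1.42.0, limma voom 3.58.1, fewer libraries, a replicate block, a transcript length trend or slope, marker scores as covariates, and single libraries left out. The marker scores used as covariates were those of pituitary, posterior hox and skeletal muscle only.

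Replicate numbers come from the sample titles. Deviations of embryos with the same number in the PCB40 and PCB400 groups had correlations of -0.286, -0.107, 0.0558, 0.0868, 0.0335 and 0.135 for numbers 1 to 6, so the numbers were not taken as pairs. Over the 90 pairs of libraries within a group, correlations of log2 CPM ran from 0.927 to 0.971, and no files held identical values.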

Additional observations from a re-analysis of the deposited data

Results flagged for a closer look

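Within the NBH PCB40 and NBH PCB400 groups of 6 embryos each (Control was not examined), a value was marked when the highest or lowest embryo lay so far from the nearest other that the gap, divided by the range of the group, exceeded Dixon's critical value for 6 values, and chance marks about 1 in 20 such groups. For genes the gap and the range were taken on log2 CPM, while the values printed below are CPM. Of 186 groups tested for the named genes, the technical measures and the marker scores, 24 were marked, and 9 of these were PCB400 replicate 6.

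In PCB400 replicate 6, CYP1A was at 44.5 CPM with the other embryos at 358 to 608. The same embryo was lowest for ahrr at 0.16 CPM (others 0.62 to 1.29), ahr2 at 3.05 (4.96 to 6.28), si:dkey-238o13.4 at 0.16 (8.34 to 29.6), si:ch73-103b9.2 at 4.6 (7.24 to 9.47) and hcls1 at 1.6 (3.04 to 4.14). It was highest for cdk8 at 42.6 CPM (21.4 to 26.6). Its posterior hox score was 2.23 against -2.61 to -1.5, and its retina and photoreceptor score -0.879 against -0.0722 to 0.395. In PCB400 replicate 5 tacc3 was at 8.01 CPM (13.2 to 16.6) and birc5a at 14.9 (25.8 to 35.2). In PCB400 replicate 2 ppp5c was at 32.7 CPM (56.1 to 64.8).

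In PCB40 replicate 1, rcc1 was at 41.6 CPM (others 68.7 to 88.8), actb1 at 596 (921 to 1179), tubb5 at 1240 (2370 to 3240) and snrpd2 at 200 (360 to 415). In the same embryo tnfrsf1a was at 2.05 CPM (0.644 to 0.825) and the length slope at 0.15 (-0.172 to -0.0992). In PCB40 replicate 6, gpr173 was at 31 CPM (21.1 to 24), nts at 23.8, crybgx at 1.61 (0.527 to 0.701) and smarcd1 at 119 (171 to 187), and the pituitary score was -1.84 (0.892 to 1.18). In PCB40 replicate 5 gclm was at 53.2 CPM (28.5 to 35.5).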

How the results depend on the processing

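The numbers of calls moved more than the fold changes. Against 822 calls, 261 higher and 561 lower, DESeq2 gave 1593 (481 and 1112), the 12 libraries alone 126 (16 and 110), the length slope as a covariate 371 (191 lower) and the marker scores as covariates 401 (114 and 287). Without any filter 165 genes were higher. Without PCB400 replicate 6 and PCB40 replicate 1 together, a choice made after the data were seen, there were 2402 (982 and 1420). With single libraries left out the counts ran from 97 to 2594, 34 to 1194 higher and 63 to 1400 lower. The log2 fold change of CYP1A ran from 2.06 to 2.57 in these fits, and the CYP1A call was lost in 7 of them. It was also lost with the 18 NBH libraries (2.31), the 12 libraries (2.27) and the marker scores (2.18). The cause of these differences was not tested. Genes whose second step differed from the first numbered 46 with DESeq2, 1 with the 18 NBH libraries and 0 with the stricter filter, limma voom, the length slope, the marker scores or the replicate block. Those differing from Scorton Creek numbered 2568 with DESeq2, 185 with the length slope and 743 with the marker scores. Of the 16 technical measures 0 or 1 passed with 1 library left out (1 without PCB40 replicate 1). Of 76 named called genes 20 kept their call in every alternative, 56 lost it in at least 1, and 0 changed sign. Whether the replicate numbers mark pairs is not in the labels, and they were not taken as pairs. The replicate block gave 821 calls, 710 shared with the 822, and ended the calls of gpx4a and bfsp2 among the named genes, and no embryo correlated best with its own number. With 6 embryos a group and a common biological coefficient of variation of 0.389, small steps of genes near 3 counts could not be resolved.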
